A study of Mus musculus with 2 samples.

Results

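The Mir379 to Mir410 cluster is a run of microRNA genes in the imprinted Dlk1-Dio3 region of mouse chromosome 12. Its 39 genes were taken by name, from Mir379 to Mir3072, out of the 2202 microRNA genes that the deposited tables list. They lie in mm10 at chr12:109709060-109747960, 38 on the plus strand and Mir299b on the minus strand. Small RNA under 30 nt was sequenced from the gastrocnemius, the large calf muscle, of female B6CASTF1/J mice aged 2 months, which are bred by crossing C57BL/6J with CAST/EiJ mice. There is 1 group with 2 libraries, labelled biological replicates 1 and 2, from animals numbered 3 and 4 that carry the same donor code. The labels do not otherwise say how the animals relate, so the spread between the libraries may be partly technical. With no second condition, the data describe the level of each gene and how far the libraries differ. The counts do not separate the maternal and paternal alleles of the cross.

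Imprinted genes are expressed from the copy of only one parent. In the Dlk1-Dio3 region the noncoding RNAs Meg3, Rian and Mirg and the microRNAs come from the maternal copy, and the protein genes Dlk1 and Rtl1 from the paternal copy. The microRNAs of this cluster are cut as hairpins from long primary transcripts, and each hairpin can give a 5p and a 3p mature microRNA from its arms. A mature microRNA pairs with messenger RNAs mainly through its seed, bases 2 to 8, and lowers their translation and stability. The cluster is known from embryonic tissue, placenta, brain and muscle, and Mef2 transcription factors, which act in neurons and in muscle, are known to drive it.

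Own-strand counts of microRNA genes summed to 1950204 in replicate 1 and 2291821 in replicate 2. A single count was therefore worth 0.513 and 0.436 CPM, the count scaled to a library total of 1000000, and 3 counts, used as the one-sided 95% upper limit of a count of 0, 1.54 and 1.31 CPM. Mature microRNAs of the cluster are 18 to 25 nt long, so CPM were not divided by length. Each count belongs to a whole hairpin gene, and 5p and 3p reads cannot be told apart in it. Of the striated muscle microRNAs checked against the label, 9 of 9 reached 10 counts in each library, and together they held 2.79% and 4.65% of the counts. Mir206 alone had 52086 of their 54497 counts in replicate 1 and 96104 of 106677 in replicate 2. Reads that aligned to several copies of Mir1a or Mir133a are in none of these counts. In bulk muscle, fewer cells of a type and less RNA per cell cannot be told apart.

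The sequences below are RefSeq mature microRNAs on GRCm38.p6, which gave 73 mature sequences for the 39 genes, and capitals mark the seed. The first set belongs to Mir411 and Mir379, the most abundant genes of the cluster, whose hairpins lie at chr12:109710175-109710256 and chr12:109709060-109709125 on the plus strand. Their 3p arms share a seed and were identical at 20 of 22 positions, while their 5p arms were identical at 14 of 21 and have different seeds.
miR-411-5p: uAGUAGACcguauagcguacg
miR-379-5p: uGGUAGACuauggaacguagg
miR-411-3p: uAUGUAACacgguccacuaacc
miR-379-3p: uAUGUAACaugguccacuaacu

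The second set shows where near-identical sequence bears on the counts, because a read with more than one best place in the genome enters no gene's count. Mir299b lies inside Mir299a on the other strand, and its 5p and 3p sequences each occur whole in that of the same arm of Mir299a. The 5p arms of Mir376b and Mir376c were identical at 21 of 22 positions. On the mature sequences given, these 4 genes are the only members with a stretch of 18 nt that also occurs in another microRNA gene of the annotation.
miR-299a-5p: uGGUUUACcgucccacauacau
miR-299b-5p: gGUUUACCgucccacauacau
miR-376c-5p: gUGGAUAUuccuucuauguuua
miR-376b-5p: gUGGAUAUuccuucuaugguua

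The third set holds the 3p arms of the 2 genes that differed most between the libraries, Mir543 and Mir496a, with that of Mir495. Mir495 is the nearest neighbour of Mir543 downstream, and their 3p arms were identical at 18 of 22 positions.
miR-543-3p: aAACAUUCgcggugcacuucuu
miR-495-3p: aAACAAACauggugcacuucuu
miR-496a-3p: uGAGUAUUacauggccaaucuc

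The 73 mature sequences had 66 different seeds, and 13 genes shared a seed with another gene of the cluster. A single mature sequence was given for 5 of the 39 genes, so a seed on an arm not given is not counted. Among the sequences given, the shared seeds formed 7 pairs. Besides Mir379 with Mir411, Mir299a with Mir299b and Mir376b with Mir376c, these were Mir379 with Mir1193, Mir1197 with Mir758, Mir453 with Mir496a, and Mir494 with Mir410. In the RefSeq table no mouse microRNA gene outside the cluster had any of these 7 seeds. Among all stretches of 6 bases, GUUGCC was the one found in the mature sequences of most members, 7 of 39 (17.9%), namely Mir543, Mir495, Mir381, Mir453, Mir154, Mir496a and Mir377. It was found in 4 of 1019 other microRNA genes of the table (0.393%). The stretch was picked for being common in the cluster and was searched on the mature strand alone, so the 2 shares are a description. Hairpins of the cluster had a median of 43.6% G and C, against 50.9% in the other genes of the files.

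The cluster was broadly detected and unequal in level. Together its genes held 1.22% of own-strand microRNA counts in replicate 1 (23844 counts) and 1.14% in replicate 2 (26144 counts), a mean of 1.18% ± 0.0579 (SD, n = 2). Exact 95% Clopper-Pearson intervals of these shares were 1.21 to 1.24% and 1.13 to 1.15%. Such intervals and limits allow for counting error and for nothing else, so not for the spread between libraries. They take each count as a separate molecule, and PCR copies counted more than once would make them too narrow. At least 10 counts in each library, the minimum for calling a gene detected, were reached by 32 of 39 members (82.1%), against 246 of the 2163 other genes (11.4%). Mean levels of the detected members spanned 781-fold. They were at least 1000 CPM for 3 genes, from 100 to under 1000 for 8, from 10 to under 100 for 20 and below 10 for 1. The median detected member had 56.1 CPM, against 123 CPM for all detected genes of the files, and 21 of the 32 lay below that value. Only Mir411 and Mir379 were among the 50 most abundant microRNA genes.

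Mir411 was the leading gene, with 11431 counts in replicate 1 and 11666 in replicate 2. That was 5861 and 5090 CPM, a mean of 5476 ± 545 (SD, n = 2), and rank 26 among all microRNA genes by counted reads. It held 47.9% and 44.6% of the cluster's counts. Mir379, the first gene of the run and 1.115 kb upstream of Mir411, had 3707 and 3591 counts, or 1734 ± 236 CPM (SD, n = 2). Mir411 was 3.08-fold and 3.25-fold above it, so the order held in both libraries. With their shared 3p seed, the 2 genes took 63.5% and 58.4% of the cluster's counts, of which the 3p share is not given.

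Mir487b came next, with 1625 and 2686 counts and 1003 ± 240 CPM (SD, n = 2). Its level stood below that of Mir379 in both libraries. It was 0.438 times Mir379 in replicate 1 and 0.748 times in replicate 2. Mir299a had 1075 and 1413 counts, or 584 ± 46.2 CPM, and Mir541 had 1179 and 1136 counts, or 550.1 ± 76.99 CPM (SD, n = 2 each). Mir541 was above Mir299a in replicate 1 and below it in replicate 2, so their order was not resolved. These 5 genes carried 79.8% and 78.4% of the cluster's counts, a mean of 79.1% ± 0.972 (SD, n = 2).

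The next 3 genes had nearly the same level in both libraries. Mir382 had 871 and 1018 counts, or 445 ± 1.72 CPM (SD, n = 2). Mir376c had 771 and 928 counts, or 400.1 ± 6.77 CPM (SD, n = 2). The primary transcripts of the Mir376 group are known substrates of adenosine-to-inosine editing. Mir369 had 676 and 815 counts, or 351 ± 6.35 CPM (SD, n = 2). The gaps between these 3 genes were wider than their spreads. The libraries lay further apart for the last genes of the leading 10. Mir154 had 403 and 572 counts, or 228 ± 30.4 CPM, and Mir329 had 351 and 304 counts, or 156 ± 33.5 CPM (SD, n = 2 each). The 10 leading genes took 92.6% and 92.3% of the cluster's counts, and the other 22 detected genes nearly all of the remaining 7.36% and 7.71%.

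**Figure D1:**
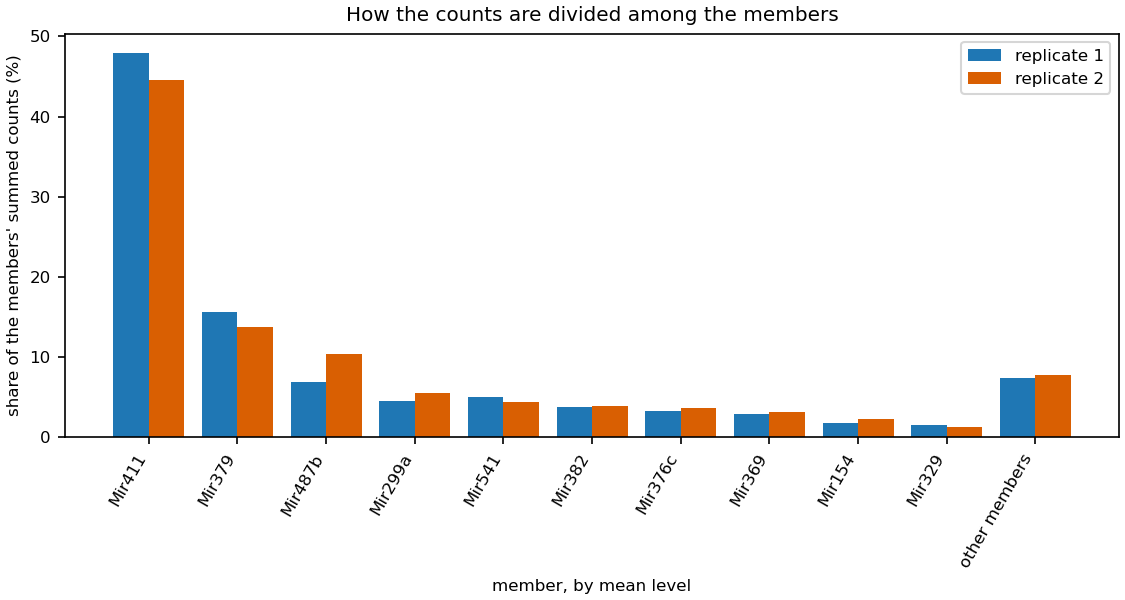
Share of the members' summed own-strand counts (%, y axis) held by each of the 10 most abundant members and by the other members together (x axis), one bar per library. Mir411 holds 47.9% and 44.6%, and the 10 genes together 92.6% and 92.3%.

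Another 15 genes, from Mir409 at a mean of 132 CPM down to Mir410 at 18.2 CPM, lay between these leaders and the lowest ones, as did Mir543 and Mir496a, the genes called between the libraries. The log2 ratios of the 15 between the libraries ran from −0.83 to 0.47. Genes of like sequence did not always have like levels. Mir376b had 76 counts in each library, 36.1 ± 4.11 CPM (SD, n = 2), far below Mir376c, with which it shares a 5p seed and an 18 nt stretch. Mir376a had 144 and 93 counts, or 57.2 ± 23.5 CPM (SD, n = 2). By contrast, Mir300 and Mir381, identical at 19 of 22 positions of their 3p arms, had 71.5 ± 5.48 and 85.02 ± 17.99 CPM (SD, n = 2 each), a gap within their spread. Mir381 was below Mir300 in replicate 1 (141 and 147 counts) and above it in replicate 2 (224 and 155 counts). Mir1193 had 106 and 148 counts against 3707 and 3591 for Mir379, whose 5p seed it has. Mir134, which is known for limiting dendritic spine size in neurons, had 66 and 64 counts, or 30.9 ± 4.18 CPM (SD, n = 2). Mir494 (111 and 130 counts) and Mir539 (105 and 130 counts) were level with each other.

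The lowest detected genes lay close to the minimum. Mir667 had 18 and 11 counts, or 7.01 ± 3.13 CPM, and Mir666 had 22 and 21 counts, or 10.2 ± 1.498 CPM (SD, n = 2 each). Mir412 had 18 and 27 counts, Mir679 had 24 and 20, and Mir668 had 33 and 29. No order among the first 4 of these was resolved at this depth.

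A set of 7 genes was not detected. Mir1197, Mir758, Mir654, Mir544, Mir453 and Mir299b had 0 counts in both libraries, for which that limit is 1.54 CPM in replicate 1 and 1.31 CPM in replicate 2. Mir3072, the last gene of the run, had 3 counts in each library. Mir1197 and Mir758, which share a 5p seed, lie on either side of Mir323, which had 41 and 46 counts. Mir654 lies between Mir376c, with 771 and 928 counts, and Mir376b, with 76 in each. Undetected genes were thus scattered along the run beside detected ones. For Mir299b, reads on its opposite strand numbered 1075 and 1413, exactly the own-strand counts of Mir299a. Reads within the 5p or 3p sequence that both genes hold would align to both and be counted in neither. How many there were was not tested.

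**Figure D2:**
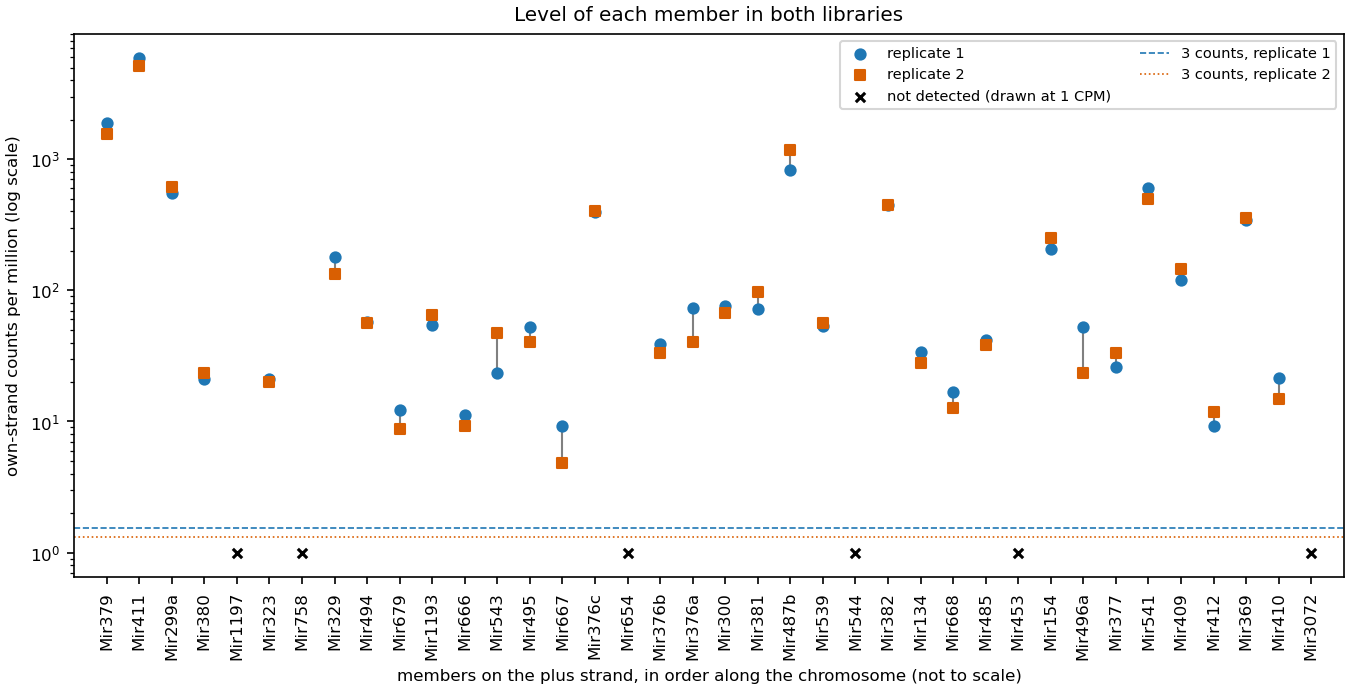
Own-strand CPM (log scale, y axis) of the 38 plus-strand members in their order along the chromosome (x axis, not to scale), with a circle for replicate 1, a square for replicate 2 and a cross at 1 CPM for members that were not detected. Dashed and dotted lines mark 3 counts in each library. High members stand among runs of low ones along the chromosome, and the 2 libraries lie close together for nearly every gene.

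Level did not follow position along the chromosome. Neighbouring plus-strand genes lie a median of 590 bp apart, and the gaps run from 20 to 4368 bp. Across the 31 pairs of neighbouring detected genes, the median difference in mean CPM was 2.54 on the log2 scale. It passed 2-fold in 25 pairs and 10-fold in 10. Across the 32 detected genes, Spearman's rho of mean CPM with distance from Mir379 was −0.12, and with the hairpin's content of G and C it was −0.42. Genes of 1 cluster in the same libraries are not independent, so both are given as a description.

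The downstream end of the run lies in Mirg, a long noncoding gene on the plus strand (chr12:109729764-109749460). In the annotation 14 members, from Mir382 to Mir3072, lie inside it, and Mir134, Mir485, Mir377 and Mir410 fall wholly within one of its exons. The 24 plus-strand members from Mir379 to Mir544 lie upstream of Mirg and in no other annotated gene of that strand. The members in Mirg held 15.8% and 16.2% of the cluster's counts, led by Mir541, Mir382 and Mir369, and 12 of 14 were detected. The upstream members held 84.2% and 83.8%, and 20 of 24 were detected. The median detected member had 57.01 CPM upstream and 38.97 CPM in Mirg, and the upstream group holds both Mir411 and Mir379.

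Strand was kept throughout the cluster. None of the 38 plus-strand members had a counted read on the opposite strand. Mir299a, Mir380, Mir376a, Mir539 and Mir409 each overlap an annotated microRNA gene on the minus strand. Without strand their reads are ambiguous, and the unstranded counts of these 5 genes are 0.

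Replicate 2 was compared with replicate 1 on all 278 detected microRNA genes of the files. This compares the libraries, not conditions. Counts were scaled by edgeR's trimmed mean of M values (TMM), and each gene was tested with a binomial test that was exact and two-sided. A gene was called where its p after Benjamini-Hochberg adjustment over the 278 genes was below 0.05 and the libraries differed at least 2-fold. Of the 32 detected members 2 were called, or 6.25%, 1 in each direction. Of all detected genes 33 were called, or 11.9%, with 2.52% higher and 9.35% lower in replicate 2. With no minimum fold, 12 of the 32 members passed, 6 higher and 6 lower, or 37.5%, against 55.4% of all detected genes. The other 20 members did not pass, which does not show that their levels were equal.

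Mir543 was higher in replicate 2. It had 46 counts in replicate 1 and 109 in replicate 2, or 23.6 and 47.6 CPM. Its log2 ratio was 1.04 (SE 0.253, counting error; adjusted exact p = 6.23e-05), just past the 2-fold line. Mir495, its downstream neighbour with a like 3p arm, had 103 and 93 counts and a log2 ratio of −0.34 (SE 0.206, adjusted exact p = 0.154). Mir496a was lower in replicate 2, with 103 and 54 counts, or 52.8 and 23.6 CPM. Its log2 ratio was −1.12 (SE 0.241, adjusted exact p = 5.54e-06). Mir376a, with a log2 ratio of −0.83 (SE 0.191, adjusted exact p = 4.17e-05), missed the fold minimum, and Mir667 at −0.88 rested on 18 and 11 counts (adjusted exact p = 0.199).

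Both calls hold against counting error alone. With a spread between libraries put in as the coefficient of variation of 0.352 that edgeR estimated over the detected genes from the same 2 libraries, edgeR's exact test called 0 members, and 0 had an unadjusted p under 0.05, where it called 2.52% of all detected genes. At an assumed 0.2 it also called 0 members, with 2 at an unadjusted p under 0.05, against 7.91% of all. The first value contains the difference being tested and the second is not measured, and each side is a single library.

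Among the abundant genes the differences passed the test but were small. Mir487b was higher in replicate 2, with a log2 ratio of 0.53 (SE 0.0453, adjusted exact p = 3.85e-31), and so was Mir299a, at 0.20 (SE 0.0584, adjusted exact p = 0.00174). Mir411, Mir379 and Mir541 were lower, with log2 ratios of −0.17 (SE 0.019, adjusted exact p = 2.8e-18), −0.24 and −0.25. Mir329 was lower as well, at −0.41, and Mir154, Mir409 and Mir381 were higher, at 0.31, 0.31 and 0.47. Mir382, Mir376c and Mir369 had log2 ratios of 0.03, 0.07 and 0.07 and did not pass, although their counts give an SE of 0.0666 to 0.075.

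**Figure D3:**
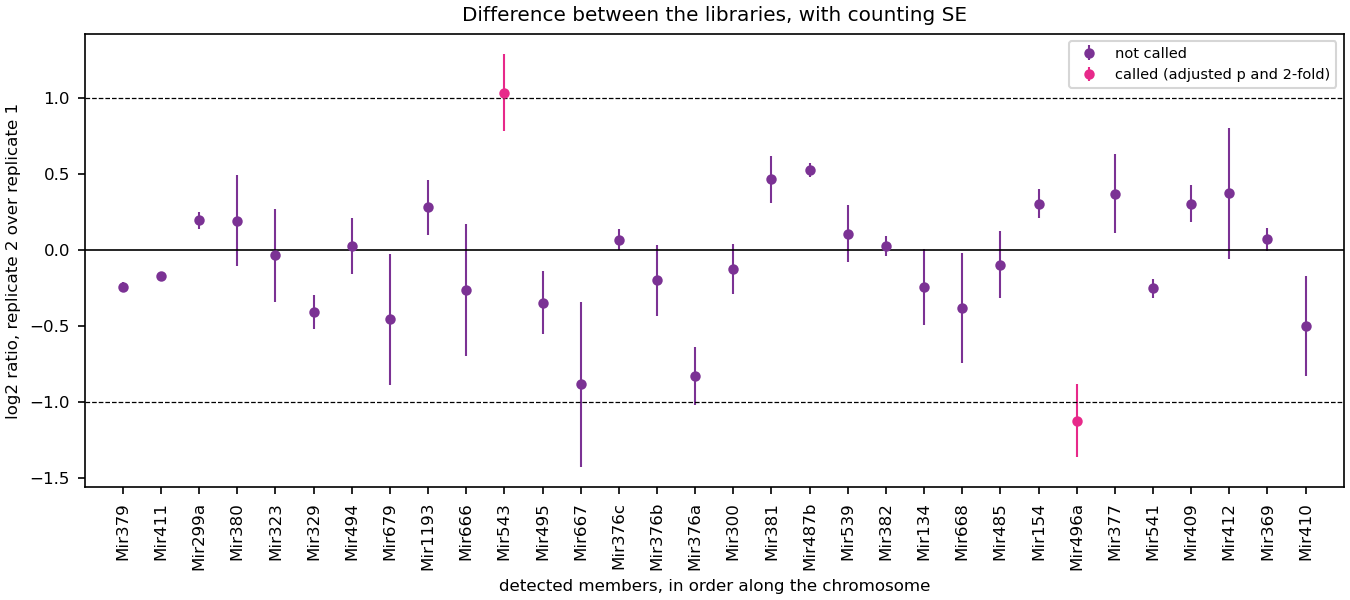
Log2 ratio of replicate 2 over replicate 1 (y axis) for the 32 detected members in chromosome order (x axis), with bars of 1 counting SE either way. Dashed lines mark 2-fold. Mir543 and Mir496a lie past them, and 27 of the 32 genes lie within 0.5 of equality.

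As a list, the detected members lay close to equality between the libraries. Their log2 ratios had a median of −0.07, against −0.03 over all detected genes, with 15 higher and 17 lower in replicate 2. Ratios ran from −1.12 to 1.04 with an SD of 0.441, while the 246 other detected genes had an SD of 0.826. The 13 detected genes of the Meg3 and Rtl1 side of the same imprinted region, listed below, had an SD of 0.501. Their median absolute log2 ratio was 0.25, against 0.273 for the members. A narrow spread was thus not particular to the cluster. Within 0.5 of equality lay 84.4% of the members and 60.6% of the other genes. Between the libraries, Pearson's r of log2 CPM was 0.983 across the 32 members and 0.971 across the 246 other genes, and Spearman's rho was 0.972 and 0.959. Genes of the same libraries are not replicates, so no p is given. Ranks within the cluster moved by at most 2 places for 29 of the 32 genes. The difference in spread between members and other genes was not tested.

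**Figure D4:**
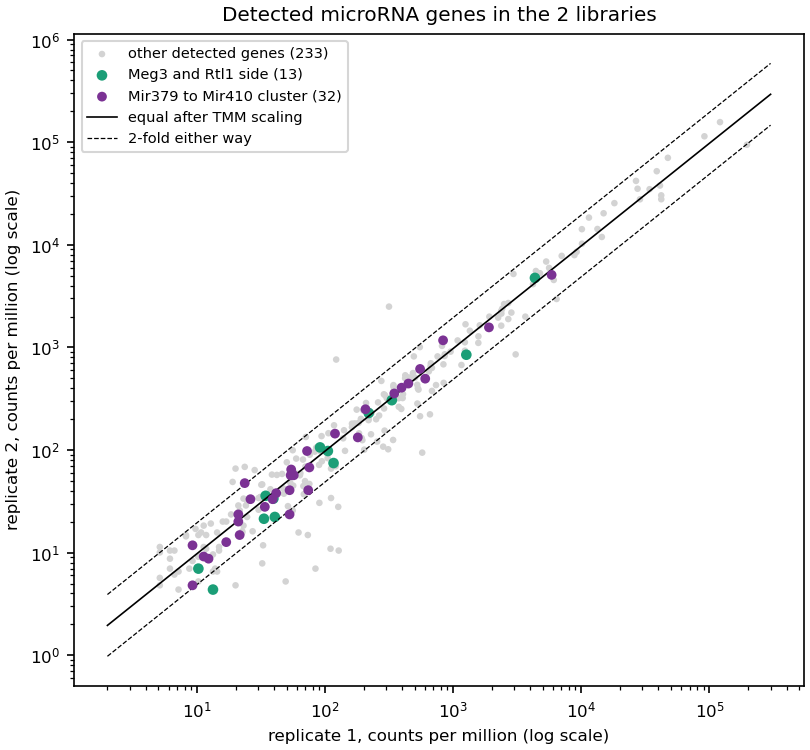
CPM in replicate 1 (x axis) and replicate 2 (y axis), both on log scales, for all 278 detected microRNA genes, with the 32 detected cluster members in purple, the 13 detected genes of the Meg3 and Rtl1 side in green and the rest in grey. The solid line marks equality after scaling and the dashed lines 2-fold. The members follow the solid line, with Mir543 and Mir496a just beyond the dashed ones.

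Upstream in the same imprinted region, 16 microRNA genes were listed as its Meg3 and Rtl1 side. They run from Mir770, which starts at chr12:109563692, to Mir882, which ends at chr12:109682273. They held 0.664% and 0.654% of counts, and 13 of the 16 were detected. The summed counts of the Mir379 to Mir410 cluster's 39 genes were 1.84 and 1.74 times theirs, a mean ratio of 1.79 ± 0.0683 (SD, n = 2). Mir127, which is antisense to Rtl1, led that group at 4549 ± 291 CPM (SD, n = 2). Mir411 had 1.35 times the counts of Mir127 in replicate 1 and 1.07 times in replicate 2. Of the 13 genes 1 was called (7.69%, against 11.9% of all detected genes), Mir665, with 26 and 10 counts.

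Of the 119 microRNA genes that lie inside Sfmbt2 on its strand, another imprinted cluster, 5 were detected and 109 had no count. Their share was 0.0431% and 0.0217%. Many of these genes are near-identical copies, so reads that fit several of them are in none of these counts. Among 5 other imprinted microRNAs, Mir335 led a share of 0.237% and 0.210%. The share of the Mir379 to Mir410 cluster was thus the largest of these 4 lists in both libraries, but the lists differ in size. They hold 39 genes in the cluster, 16 on the Meg3 and Rtl1 side, 119 in Sfmbt2 and 5 others. The median detected gene had 56.1 CPM in the cluster and 95.5 CPM on the Meg3 and Rtl1 side. It had 40.8 CPM in the Sfmbt2 list and 58.1 CPM among the other imprinted microRNAs.

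Several marker lists of other cell types differed between the libraries by more than 2-fold. Neural markers held 0.0269% and 0.00659% of counts, with 3 of 11 genes detected, all 3 called lower in replicate 2. Their 6 genes of Mir124a and Mir9 were at 0 in both libraries. Each of these is 1 of 3 copies, so reads that aligned to several copies are in none. Mir338, a marker of myelinating glia, had 5989 and 1959 counts. The smooth muscle list of Mir143 and Mir145a held 20.3% and 9.73%, both genes called lower, while the fibroblast list held 0.149% and 0.151%, with 1 of 3 detected genes called lower. Most fibroblast counts came from Mir214 (2631 of 2909 and 3330 of 3470), while Mir199b had 217 and 78. Leukocyte markers held 0.315% and 0.246%, with 2 of 4, Mir142 and Mir223, called lower. The other 2 did not go that way. Mir155 had 2111 and 2678 counts (log2 ratio 0.14) and Mir150 had 1676 and 1964 (log2 ratio 0.03). The endothelial Mir126a held 12.1% and 15.7%. Of all detected genes 11.9% were called, with 9.35% lower and 2.52% higher in replicate 2. With edgeR's exact test at the estimated coefficient, 0 genes of these lists were called, against 2.52% of all. All 9 striated muscle genes were higher in replicate 2, and 2 were called, Mir499 (615 and 5722 counts, log2 ratio 3.02) and Mir208b (238 and 1745 counts, log2 ratio 2.67), also at the estimated coefficient. Both lie in introns of slow-fibre myosin genes. Over the same pair of libraries the cluster's share was 1.22% and 1.14%. The part of any of these cell types in the members' levels was not tested.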

How the data were processed

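The authors deposited 3 unnormalized counts per microRNA gene, for either strand, the own strand and the opposite strand. Reads were assigned on mm10 with GENCODE mouse release 21, per the notes deposited with each library, and which aligner and counter were used is not given in the sources used here. Own-strand counts were used. Rows that name no gene, among them multimapping reads (70.1% and 72.3% of reads listed), stayed out of library sizes and tests. Names, positions and hairpins came from the GENCODE annotation and transcripts, and mature sequences from RefSeq.

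CPM were taken over all own-strand microRNA counts. Log2 ratios used a prior of 0.5 counts and TMM scaling. With 1 group, no quasi-likelihood test between groups was run. All members are accounted for. Values per library are given for the 10 highest and the 5 lowest detected members, those called and those not detected, and others were named after their values were seen. The members and lists were chosen with earlier results of these data known. Of the neural names, 3 were not found in the annotation. Alternatives changed scaling, strand, count and fold minimum, spread, denominator and libraries. Tests and scaling ran in scipy 1.17.1 (Python 3.11.15), edgeR 4.0.16 and DESeq2 1.42.0 (R 4.3.3), tables in pandas 2.3.3 with numpy 2.4.6, and plots in matplotlib 3.10.9.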

Additional observations from a re-analysis of the deposited data

Results flagged for a closer look

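Reads that aligned to several places lie outside the gene counts used here and made up 70.1% of reads listed in replicate 1 and 72.3% in replicate 2. The tables do not assign them to genes, so their share for Mir299a, Mir299b, Mir376b and Mir376c, or for any other gene, is not known.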

How the results depend on the processing

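The call of Mir543 and Mir496a, 2 members, was the same with DESeq2 size factors, total counts, unstranded counts, a count minimum of 5 or 20, or none, and, chosen after seeing the data, scaling to the members' own sum. At a minimum of 1.5-fold Mir376a joined them, for 3 members and 67 of all detected genes, and without a fold minimum 12 members were called. With edgeR's exact test 0 were called, both at an assumed coefficient of variation of 0.2 and at the estimated one, by the larger spread that these tests allow. The cluster's share was 0.218% of all reads listed, 3.59% without the 10 most abundant genes and 1.499% on unstranded counts, where only the denominator or the genes that lose their counts differ. Under the alternatives run for each, the members' median log2 ratio lay between −0.11 and 0.0004, the detected members between 27 (unstranded) and 33 (no minimum), the share of the 5 leading members between 78.4% and 79.9%, and the ratio to the Meg3 side between 1.74 and 1.84. Without replicate 1 or 2 the cluster's share was 1.14% or 1.22%. Of 67 alternative log2 ratios of the 17 named members, 66 kept their direction and side of the threshold. The ratio of Mir382 reversed to −0.0080 on total counts, within its counting error. Leaving out a library of a comparison of 2 leaves no test. Counting error limits members under about 50 counts.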
